A study of Danio rerio with 2 samples.

Results

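The blood clotting genes examined here were 10 transcripts of plasma proteins made in the liver: the fibrinogen chains fga, fgb and fgg, the protease precursors f2, f7, f7i, f9b, f10 and plg, and the cofactor f5. They were taken by symbol from a deposited table of 40114 loci that yielded 27458 named genes. All 10 were present, each as 1 entry, but f7i and f10 are given the same span. RNA came from zebrafish larvae at 5 days after fertilization (5 dpf), with 20 whole bodies pooled for each of the 2 samples. The mutant sample held larvae homozygous for lri12, and the control sample their wild-type clutch-mates. Which gene carries lri12 is not stated in the labels. With 1 pool per genotype there is no replicate check, and each difference below is one between 2 libraries.

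In the clotting cascade, tissue factor binds factor VII, and this complex activates factors IX and X. Factor X, helped by factor V, then cuts prothrombin to thrombin. Thrombin turns soluble fibrinogen into fibrin, and plasmin, made from plasminogen, dissolves the clot again. Prothrombin and factors VII, IX and X need vitamin K to be completed, and in vertebrates hepatocytes secrete most of these proteins into the blood.

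Levels are given in FPKM, fragments adjusted for transcript length and sequencing depth, so genes can be set side by side. Differences are log2((mutant + 1)/(wild type + 1)), and folds come from it; the added 1 makes folds of low genes smaller than their plain ratios. A gene entered if the mean of its 2 values reached 1 FPKM, which held for 18664 of all genes and all 10 clotting genes. Sequencing depth is not known in absolute terms. If the commonest ratio among 3570 low loci stands for equal read numbers, the mutant library was 1.1 times as deep. Hepatocyte, fast muscle, exocrine pancreas and lens markers were present in both pools, as the label of whole bodies implies. Summed over each list, fast muscle stood at 46044 FPKM in the wild-type pool and 48653 in the mutant pool, and exocrine pancreas at 10058 and 4365 FPKM.

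Most clotting transcripts were slightly lower in the mutant pool, and no value was far apart. Of the 10 genes, 9 lay below 0 and 1 above, where 48.7% of all genes lay below 0. At least 1.2-fold lower were 3 of the 10, f7, f7i and plg, against 7.39% of all genes. At least 1.5-fold lower were 0 of the 10, against 1.68% of all genes, and at least 2-fold lower 0 of the 10, against 0.439%. None of the 10 was at least 1.2-fold higher, against 5.9% of all genes. The median of the 10 log2 differences was -0.18, and that of all genes was 0.004. With a pseudocount of 5 FPKM, 1 of the 10, f7, was at least 1.2-fold lower. In the authors' deposited table all 10 genes carry a q-value of 0.999, from 1 pool against 1 pool.

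**Figure D1:**
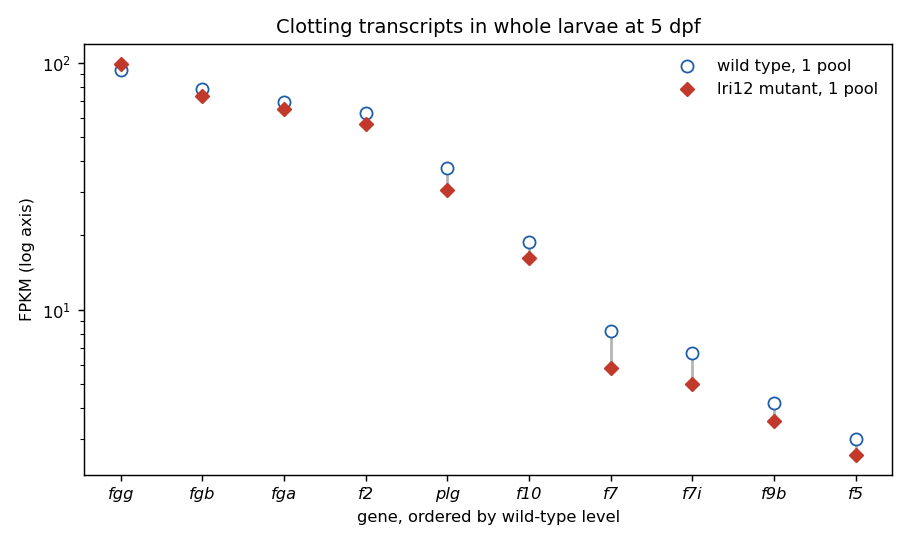
FPKM of each clotting gene on a log axis in the wild-type pool (open circles) and the lri12 mutant pool (red diamonds), 1 pool each, so there are no error bars. Only fgg has its mutant point above its wild-type point, and the order of the 10 genes is the same in both pools.

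The fibrinogen chains were the most abundant of the clotting transcripts in both pools and differed least between them. With 1 pool each, whether neighbours in the order of levels differ beyond their spread cannot be judged. The locus of fga, which encodes the alpha chain, spans chromosome 1 from 9139584 to 9147624 in the build Zv9 and stood at 69.3 FPKM in the wild-type pool and 64.7 in the mutant pool. Its neighbour fgb, the beta chain gene (chromosome 1, 9127846 to 9135580), stood at 78.2 and 73.2 FPKM. The mutant level was thus 93.4% of wild type for fga and 93.6% for fgb, with log2 differences of -0.10 and -0.09.

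The gamma chain gene fgg (chromosome 1, 24527198 to 24536783) went the other way, at 93.4 FPKM in the wild-type pool and 99.3 in the mutant pool, a log2 difference of 0.09. A total of 4003 bases separate the fgb and fga loci, whereas fgg lies 15379573 bases beyond fga. The ratio of fga to fgb was 0.886 in the wild-type pool and 0.884 in the mutant pool, and that of fgg to fgb was 1.19 and 1.36. Summed over the 3 chains, fibrinogen RNA stood at 241 and 237 FPKM, so the mutant pool held 98.4% of the wild-type level. Differences of this size are common in this table, since 24.7% of all genes were as low as fgb or lower and 72.5% were at or below the value of fgg.

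The protease precursors all lay lower in the mutant than any fibrinogen chain did. Their 6 log2 differences ran from -0.43 to -0.15 with a median of -0.25, and those of the 3 chains ran from -0.10 to 0.09. The nearest ends were close, with f2 at -0.150 and fga at -0.097. Of all genes, 16.0% were as low as f2 or lower, and 23.9% as low as fga or lower. The grouping into precursors and chains follows the proteins' roles, and its difference has no test. The 3 chains were also the most abundant clotting genes in both pools. Whether the gap goes with role or with level was not tested. Summed, the 6 precursors stood at 138 FPKM in the wild-type pool and 118 in the mutant pool, 85.1% of wild type.

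The prothrombin gene f2 (chromosome 7, 40142972 to 40152260) was the most abundant precursor, at 62.7 FPKM in the wild-type pool and 56.4 in the mutant pool. Its log2 difference was -0.15, a value that 16.0% of all genes had or went below. Plasminogen, plg (chromosome 20, 42720218 to 42734615), the precursor of the enzyme that dissolves fibrin, stood at 37.5 and 30.6 FPKM, 1.22-fold lower. In all, 6.47% of genes were as low as plg or lower. The factor X gene f10 (chromosome 1, in a span from 23087 to 58985), whose product cuts prothrombin, stood at 18.9 and 16.2 FPKM, a log2 difference of -0.21.

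The factor VII gene f7 (chromosome 1, 15961 to 21248), whose product starts clotting with tissue factor, had the lowest log2 difference of the 10. It stood at 8.19 FPKM in the wild-type pool and 5.81 in the mutant pool, 1.35-fold lower, and 3.08% of all genes were as low or lower. Its p-value in the authors' deposited table was 0.0738, the smallest of the 10 genes. The related gene f7i, reported in zebrafish to hold clotting back, stood at 6.67 and 5.03 FPKM, 1.27-fold lower. Its span is shared with f10 and other genes. The ratio of f7 to f7i was 1.23 in wild type and 1.16 in the mutant.

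The factor IX family gene f9b (chromosome 10, 27383247 to 27392979), whose family activates factor X in mammals, stood at 4.21 and 3.55 FPKM, a log2 difference of -0.20. Factor V, f5 (chromosome 9, 35098309 to 35119300), is the cofactor of factor X and was the least abundant of the 10. It stood at 3.0 and 2.58 FPKM, a log2 difference of -0.16, and 15.0% of genes were as low or lower. The level of f2 was 20.9 times that of f5 in the wild-type pool and 21.9 times in the mutant pool.

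By median, the less abundant clotting genes lay lower than the more abundant ones. The 4 genes with a mean below 10 FPKM, f7, f7i, f9b and f5, had a median log2 difference of -0.27 and together 76.9% of their wild-type level. The other 6 had a median of -0.12 and 94.6% of their wild-type level. The ranges overlap, since plg lay below f5 and f9b. Of the lower 4, 2 were at least 1.2-fold lower, against 7.05% of all genes with a mean of 1 to 10 FPKM. Of the upper 6, 1 was, against 7.99% of all genes averaging 10 FPKM or more.

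**Figure D2:**
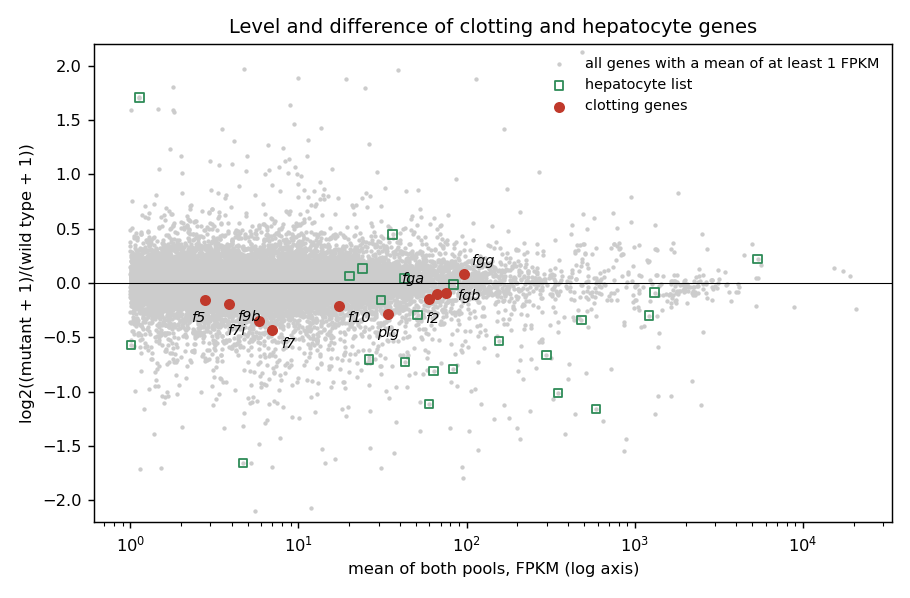
The log2 difference between the mutant and wild-type pools against the mean of both pools in FPKM (log axis), with clotting genes in red, the hepatocyte list as green squares and all genes in grey; 12 genes lie outside the vertical range. The clotting genes run from f7 at -0.43 to fgg at 0.09, while hepatocyte genes reach -1.65.

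The factor VII and factor X genes lie in a run at the start of chromosome 1, and its other members, named after their values were seen, were lower too. The locus listed as F7 (2 of 3), before f7, stood at 3.01 FPKM in the wild-type pool and 1.86 in the mutant pool, 1.40-fold lower, with a p-value of 0.0223 and a q-value of 0.999 in the authors' deposited table. Next to f7, the table gives f7i, f10, PROZ (2 of 2) and pcid2 the same span, 23087 to 58985. How the authors' program divided reads among these 4 genes is not known. PROZ (2 of 2), named for the vitamin K-dependent protein Z, stood at 1.68 and 1.40 FPKM.

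Over the 5 clotting genes of the run the log2 differences lay between -0.49 and -0.16 with a median of -0.35. The next 5 genes, pcid2, grtp1a, adprhl1, tmco3 and dcun1d2, lay between -0.13 and 0.10 with a median of -0.07. The ranges do not overlap, but their nearest ends were close. PROZ (2 of 2) lay at -0.160, a value that 14.8% of all genes had or went below, and adprhl1 at -0.129. Both were near the 1 FPKM needed for entry, PROZ (2 of 2) at 1.68 and 1.40 FPKM and adprhl1 at 1.62 and 1.40 FPKM. The run was chosen after its values were seen, and whether reads were shared among these related genes was not tested.

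**Figure D3:**
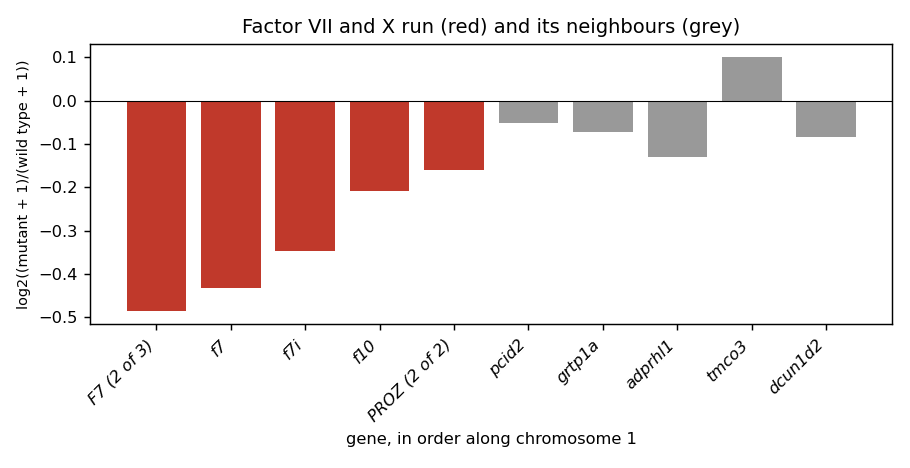
The log2 difference between the mutant and wild-type pools for the factor VII and X run (red) and the next 5 genes (grey) in order along chromosome 1; f7i, f10, PROZ (2 of 2) and pcid2 share a span and are in table order. Red bars reach from -0.49 to -0.16 and grey bars from -0.13 to 0.10.

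Other genes of clotting and its control went both ways. Of 39 listed genes, 25 were found and 22 entered, with a median of -0.05. At least 1.2-fold lower were 3 of the 22, kng1, proc and serpinc1, against 7.39% of all genes. At least 1.2-fold higher were also 3, with f3b and s100a10b among them, against 5.9%. These counts leave out clotting loci with projected names that could not be tied to a listed symbol and were looked up afterwards. Of those that entered, F7 (2 of 3), SERPINF2 (1 of 2) and PLAU (1 of 2) were at least 1.2-fold lower. PROZ (2 of 2) lay at -0.16 and PROZ (1 of 2) at 0.04. How even the counts are thus depends on which symbols were matched.

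Among other procoagulant genes, 4 entered with a median of 0.03. The tissue factor gene f3b, a cell-surface trigger of clotting, stood at 3.56 FPKM in the wild-type pool and 6.13 in the mutant pool, 1.56-fold higher. It was the single gene of the 22 past 1.5-fold, where 0.804% of all genes were higher and 1.68% lower by that much. The second tissue factor gene, f3a, stood at 8.48 and 9.26 FPKM. The kininogen gene kng1, named for a liver-made plasma protein of the contact system in mammals, was 1.38-fold lower at 27.6 and 19.7 FPKM. The factor XIII subunit gene f13a1, for the enzyme that cross-links fibrin, stood at 7.31 and 7.0 FPKM. The genes f8, f9a and vwf did not enter, and f9a stood at 0.422 and 0.168 FPKM.

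Among anticoagulant genes, 6 of 8 lay below 0, against 48.7% of all genes, with a median of -0.11. Protein C is the protease that inactivates factor V. Its locus, listed as PROC (2 of 2) joined with proc, was 1.42-fold lower at 13.8 and 9.47 FPKM. Antithrombin, serpinc1, the main inhibitor of thrombin and factor X, was 1.24-fold lower at 46.1 and 36.9 FPKM. Protein S, listed as PROS1, the cofactor of protein C, stood at 6.27 and 6.97 FPKM, and the tissue factor pathway inhibitor tfpia at 29.2 and 29.4 FPKM.

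Among 5 genes of fibrinolysis the median was 0.18. The gene s100a10b, whose product binds plasminogen at cell surfaces in mammals, was 1.29-fold higher at 191 and 248 FPKM. The tissue plasminogen activator, listed as PLAT, stood at 3.04 and 2.89 FPKM. The carboxypeptidase cpb2, a liver-made brake on fibrinolysis, stood at 8.77 and 7.35 FPKM.

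Prothrombin and factors VII, IX and X are completed by the vitamin K cycle, and some clotting factors are exported by cargo receptors. The 5 genes of the list for this cycle and export lay between -0.12 and 0.12 with a median of -0.05. None was past 1.2-fold, and with 7.39% of all genes lower and 5.9% higher by that much, a count of 0 among 5 is near the background. The carboxylase ggcx stood at 13 and 14.2 FPKM and the reductase VKORC1 at 6.81 and 6.20 FPKM. The 5 vitamin K-dependent precursors f2, f7, f7i, f9b and f10 had a median of -0.21, which covers these members only. Of the loci named for protein Z, also vitamin K-dependent and looked up afterwards, PROZ (1 of 2) lay at 0.04 and PROZ (2 of 2) at -0.16. Of the listed fibrinogen-related genes, which share the fold of the fibrinogen chains, 3 entered with a median of 0.14, and FGL1 stood at 7.16 and 8.35 FPKM. The locus FGL2 (2 of 2), not matched to the list and looked up afterwards, lay at -0.43 and is not in that median.

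**Figure D4:**
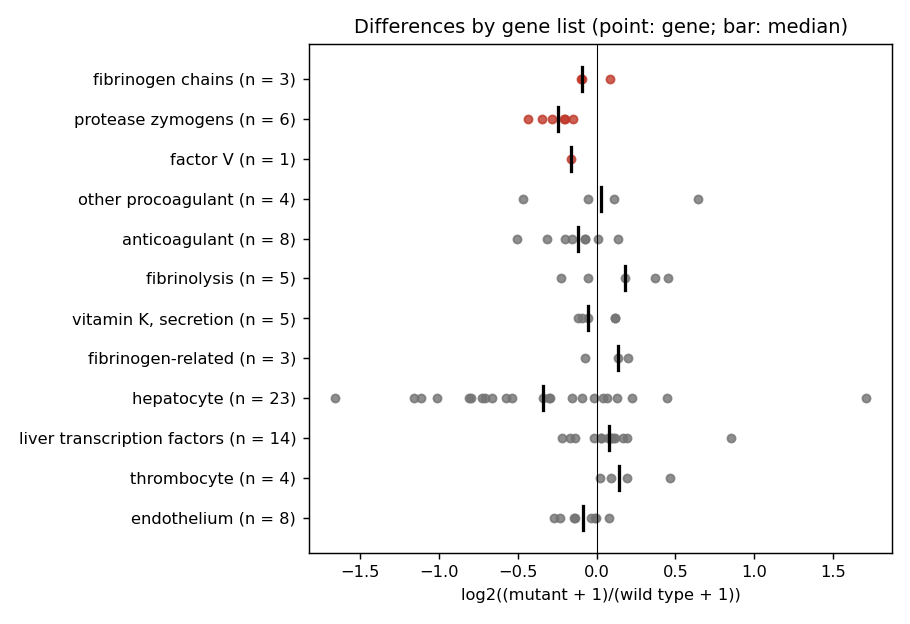
The log2 difference between the mutant and wild-type pools for each gene (point) and the median (bar) of each list, with clotting genes in red and n the genes that entered. The 6 precursors lie at or below -0.15, the fibrinogen chains around 0, and the hepatocyte list spreads from -1.65 to 1.71. The value of 1.71 belongs to a serpina1 entry that shares its span with the joined serpina1 and serpina1l locus.

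The hepatocyte list lay lower than the clotting genes. Its 23 genes had a median of -0.34. At least 1.2-fold lower were 14, against 7.39% of all genes, at least 1.5-fold lower 9, against 1.68%, and at least 2-fold lower 4, against 0.439%. At least 1.2-fold higher were 2 of the 23, against 5.9%, among them the complement factor gene cfb at 30.6 and 42.1 FPKM. The list's summed level was 10645 FPKM in the wild-type pool and 9987 in the mutant pool, and 0 of its genes stood at 0 in both. The largest part of that sum in each pool is the entry zgc:193613, at 4944 and 5768 FPKM. Because this entry was higher in the mutant pool, the sum says little about the other genes of the list. The genes at least 2-fold lower were ahsg, fabp10a, gc and fetub, and those between 1.5-fold and 2-fold lower were ttr, apobl, tdo2a, hpda and the locus joining serpina1 with serpina1l. The thyroid hormone carrier gene ttr stood at 81.2 and 45.9 FPKM, close to fgb in the wild-type pool. An entry listed as serpina1 alone, at 0 in the wild-type pool and 2.27 FPKM in the mutant pool, was the single one at least 1.5-fold higher. It is given the same span as the joined serpina1 and serpina1l locus, which stood at 364 and 230 FPKM. How the authors' program divided reads between these entries is not known. Among the most abundant genes were fabp10a at 811 and 363 FPKM, the apolipoprotein listed as zgc:193613, matched to apoa2, at 4944 and 5768 FPKM, rbp4 at 1350 and 1269 FPKM and tfa at 537 and 424 FPKM. The clotting genes' median of -0.18 thus lay between that of all genes and that of the hepatocyte list. Both lists were chosen with earlier results of these data known, so their medians and counts may depend on that choice. In RNA from whole bodies, fewer liver cells and less RNA per cell cannot be told apart, and the part of liver amount in the clotting genes' values was not tested.

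Transcription factors of the liver had a median of 0.08 over 14 genes, and 0 were at least 1.2-fold lower, near the 7.39% of all genes. The regulator hnf4a, known to act on clotting genes in mammals, stood at 5.59 and 4.87 FPKM. The factor cebpb, which takes part in the acute phase response, was 1.81-fold higher at 36.4 and 66.5 FPKM. In mammals fibrinogen genes respond to interleukin 6 through stat3. Of the genes of that response, 9 entered with a median of 0.18, 6 above 0 and 3 below, where 48.7% of all genes lay below 0. Of the 9, 3 were at least 1.2-fold higher, stat3, socs3a and socs3b, against 5.9% of all genes. A single one, hp, was at least 1.2-fold lower, against 7.39%. The gene stat3 stood at 11.2 and 14.1 FPKM, and the feedback inhibitor socs3b at 12.3 and 21.9 FPKM. The liver products haptoglobin, hp, at 56.3 and 45.8 FPKM, and hepcidin, listed as hamp1, at 9.15 and 8.31 FPKM, were among the 3 below 0.

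Thrombocytes, the fish counterpart of platelets, and vessel endothelium take part in clotting as cells. Of 10 genes of the thrombocyte list found, 4 entered, led by the integrin itgb3a at 9.16 and 13 FPKM. All 4 lay above 0, against 9580 of the 18664 genes that entered. Their log2 differences were 0.47 for itgb3a, 0.19 for nfe2, 0.09 for itgb3b and 0.02 for fli1a. Whether these 4 mark thrombocytes alone in whole larvae was not tested. The defining thrombocyte marker itga2b stood at 0.824 and 0.701 FPKM, below the level for entry. Of the 6 that did not enter, 4 lay below 0 and 2 above. Of 8 endothelial genes, 7 lay below 0, against 48.7% of all genes, with a median of -0.09. At least 1.2-fold lower was 1 of the 8, against 7.39% of all genes. This was tie1, the lowest, at 5.11 and 4.06 FPKM. Of the other organs, the median was -1.43 for exocrine pancreas, -0.78 for intestine, -0.31 for red cells, -0.05 for fast muscle and 0.29 for lens.

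Genes most like fgb and f2 over the 2 pools were looked for by their distance on the log2(FPKM + 1) scale. The nearest to fgb was the photoreceptor gene prph2b, at 79.4 and 72.8 FPKM, and the nearest to f2 was the transcription factor gene tefa, at 63.0 and 56.6 FPKM. A total of 126 genes lay within 0.2 of fgb and 120 within 0.2 of f2.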

How the data were processed

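RNA was sequenced from 1 pool of 20 whole larvae per genotype. The authors deposited 1 table laid out as Cuffdiff output, per the file headers. The authors' FPKM values, fragments scaled to transcript length and library depth before deposit, are identified by Cuffdiff's column layout, per the file headers; no label states the unit. The deposited p-values and q-values come from the authors' program, per the file headers, and are quoted only as theirs. CASAVA, Bowtie and the build Zv9 are named in the submitters' processing notes. The annotation is not given in the sources used here, nor is strand. Coordinates are those of Zv9, counted from 1.

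The 19 loci with failed estimates and loci without a symbol were left out, and loci sharing a symbol were summed. A pseudocount of 1 FPKM was added, and a mean of at least 1 FPKM was required. Counts past 1.2-fold, 1.5-fold and 2-fold are rules of size, and no test was run. Of 166 listed symbols, 119 matched as written, 15 through synonyms, including those of a RefSeq table of another assembly used for names only, 9 in capitals and 23 not at all. Named were all 10 clotting genes and, per list, genes past 1.5-fold or up to 2 furthest from 0 in each direction; for hepatocytes also the 5 most abundant. A few genes that this rule names are not reported here. Marker lists of other organs are given by their medians. Members and lists were chosen with earlier results of these data known. Alternatives were 6 planned ones and 1 added after seeing the data. Python 3.11.15, pandas 2.3.3 and numpy 2.4.6 were used, and the counting was tested on simulated data.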

Additional observations from a re-analysis of the deposited data

How the results depend on the processing

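With a pseudocount of 5 FPKM, 1 clotting gene was at least 1.2-fold lower, against 3 as reported. A larger pseudocount shrinks low genes by construction. With f7i and f10 left out, because their span is shared with other genes, 2 of 8 were at least 1.2-fold lower. The median of the clotting genes lay between -0.213 and -0.125 under all alternatives (a pseudocount of 0.1 or 5, every gene kept whatever its level, only genes averaging 5 FPKM or more, rescaling to a median of 0, the highest locus of each symbol and, added after seeing the data, leaving out f7i and f10). Of 66 values of single clotting genes under these, 2 moved by 0.1 or more: f7 and f7i came to -0.29 and -0.22 with a pseudocount of 5. None of the 66 changed sign, but these settings could hardly change one. A pseudocount cannot reverse a direction, and rescaling moved every value by only 0.004. The settings on level, on the highest locus and on leaving out f7i and f10 left each remaining value as it was. The direction of single genes was therefore not tested by them. In the setting with an average of 5 FPKM or more, f5 and f9b did not enter. No paired analysis was possible because each genotype had 1 pool, so no replicate could be left out either.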

Other observations

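Thrombin also signals to cells through some of the protease-activated receptors. Genes of this receptor family were looked up after the clotting genes had been seen, and which of them thrombin acts on was not examined. The receptor gene f2r stood at 2.13 FPKM in the wild-type pool and 2.48 in the mutant pool, and f2rl1.1 at 2.26 and 2.45 FPKM. The gene f2rl1.2 was 1.26-fold higher, at 5.94 and 7.72 FPKM, and 96.6% of all genes were at or below its value. The receptor listed as F2RL3 stood at 1.08 and 1.13 FPKM, and f2rl2 did not enter.

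Several clotting loci with projected names could not be tied to a listed symbol and were also looked up afterwards. SERPINF2 (1 of 2), named for the plasmin inhibitor, was 1.21-fold lower at 30.1 and 24.7 FPKM, close to plasminogen's own 1.22-fold. PROZ (1 of 2), on chromosome 3, stood at 27.1 and 28 FPKM, whereas PROZ (2 of 2) in the run on chromosome 1 stood at 1.68 and 1.40 FPKM. FGL2 (2 of 2), a fibrinogen-like locus, was 1.35-fold lower at 1.78 and 1.06 FPKM, and fgl2 stood at 1.95 and 1.8 FPKM. PLAU (1 of 2), named for the urokinase plasminogen activator, stood at 1.19 and 0.817 FPKM, a log2 difference of -0.27, and PLAU (2 of 2) did not enter. F13A1 (3 of 3), named for the factor XIII subunit, did not enter either, at 0.447 and 0.191 FPKM, with a p-value of 0.0099 and a q-value of 0.924 in the authors' deposited table. F13A1 (2 of 3) was listed at 0 in both pools. None of these values has a replicate.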
